A study of Mus musculus with 8 samples.

Results

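Selenoproteins are enzymes and carrier proteins that contain selenocysteine, an amino acid with selenium in place of the sulfur of cysteine. Here 10 selenoprotein genes were followed in mouse quadriceps muscle: Msrb1, Gpx1, Gpx3, Gpx4, Selenow, Selenop, Selenom, Selenon, Selenok and Txnrd1. They were chosen by gene symbol, and each matched 1 of the 54532 genes in the count tables. The other 14 mouse selenoprotein genes were measured beside them.

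Selenocysteine is inserted at a TGA codon (UGA in the mRNA), which in other mRNAs ends translation. A stem-loop in the 3′ untranslated region of the mRNA, its binding protein and a dedicated tRNA make the ribosome read on. Many of the proteins are reductases or peroxidases: glutathione peroxidases remove hydrogen peroxide and lipid peroxides, thioredoxin reductases recharge thioredoxin, and methionine sulfoxide reductases repair oxidized methionine. In muscle, selenoprotein W is abundant, and loss of selenoprotein N causes congenital muscle disease. When selenium is short, some selenoprotein mRNAs fall while others are kept.

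The libraries came from quadriceps of mice aged 3 months on a chow diet. All mice carried floxed Gpcpd1 alleles (Gpcpd1 Flox/Flox). The 4 control libraries came from mice without Mck Cre, and the 4 knockout libraries (MckCre-Gpcpd1) from mice with this transgene, in which the muscle creatine kinase promoter drives Cre recombinase. Controls therefore lacked Cre as well as the deletion, and these cannot be told apart. Sex, litter and strain are not given in the labels used here, nor whether each library is a separate mouse. The p-values thus rest on the spread among these 8 libraries, which may be technical. RNA was counted by QuantSeq FWD, which makes 1 read per transcript near its 3′ end, so levels are given as read counts scaled to library size (CPM) with no division by length.

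Library totals ran from 4404116 to 5405999 reads, and a floor of 3 reads stood at 0.557 to 0.646 CPM (counting error only). Gpcpd1 itself, a glycerophosphodiesterase gene, averaged 149.7 ± 10.7 CPM without Cre and 35.1 ± 3.45 CPM with it (SD, n = 4 each; exact two-sided permutation p = 0.0286, the smallest this design allows). A list of 8 myofibre markers, Ckm, Acta1 and Myh4 among them, together held 138000 to 152000 CPM in each library. Across all genes 1675 of 10691 tested differed between the genotypes (edgeR adjusted p under 0.05), which is 15.7%. Of all tested genes 8.87% were higher in the knockout and 6.8% lower.

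Each of the 24 selenoprotein genes carries an annotated selenocysteine codon in the GENCODE M21 annotation of GRCm38, and every one of these codons was an in-frame TGA. Selenop had 10 of them, and the other 9 genes followed here had 1 each. The coding sequence around the codon is shown for the genes whose levels differed most and for relatives that do the same chemistry with cysteine, since the families are compared further on. The codon in capitals is the selenocysteine codon or the codon aligned with it, with up to 12 bases of coding sequence on either side, from GENCODE M21 transcripts.
Msrb1: caatcaagattcTGAatatttagcagc
Msrb2: ggccaaaggtttTGCatcaacagtgtg
Msrb3: ggcaaaagatacTGCatcaactcagca
Gpx3: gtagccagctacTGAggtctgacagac
Gpx1: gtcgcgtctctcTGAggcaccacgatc
Gpx7: gtagctagcgaaTGTggcttcacagac
Gpx8: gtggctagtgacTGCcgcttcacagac
Selenow: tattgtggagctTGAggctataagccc
Txnrd1: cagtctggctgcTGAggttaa

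In Msrb1 the TGA is codon 95 of 116 and lies in exon 3 of 4, at chr17:24740158-24740160 on the plus strand. Its relatives Msrb2 and Msrb3 have TGC, a cysteine codon, at the aligned position, with 40.2% and 37.6% of aligned residues identical to Msrb1. In these shares selenocysteine was counted as cysteine, so the aligned position itself counts as identical. The TGA of Gpx3 is codon 73 of 226 in exon 2 of 5 (chr11:54907256-54907258, plus strand). Gpx1 and Gpx4 have TGA at the aligned codon, whereas Gpx7 has TGT and Gpx8 TGC. Selenow has its TGA at codon 13 of 88, in exon 2 of 6 (chr7:15920464-15920466, minus strand), with a cysteine codon 3 codons before it. Txnrd1 has it at codon 612 of 613, in the last of 15 exons (chr10:82896037-82896039, plus strand), next to a cysteine codon. Among the 10 genes, Txnrd1 was the one with the codon in the last exon, and in the other 9 at least 1 intron lies downstream of the first such codon.

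All 10 genes passed the filter on low counts. By edgeR's quasi-likelihood test over all genes, Msrb1 rose, Gpx3, Txnrd1 and Selenow fell, and the other 6 did not pass the threshold. That is 1 higher and 3 lower of 10, beside 8.87% higher and 6.8% lower of all tested genes. The same 4 genes were those whose knockout and control libraries did not overlap, against 19.2% of all tested genes. The median log2 fold change of the 10 genes was 0.12, beside 0.01 over all tested genes.

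**Figure D1:**
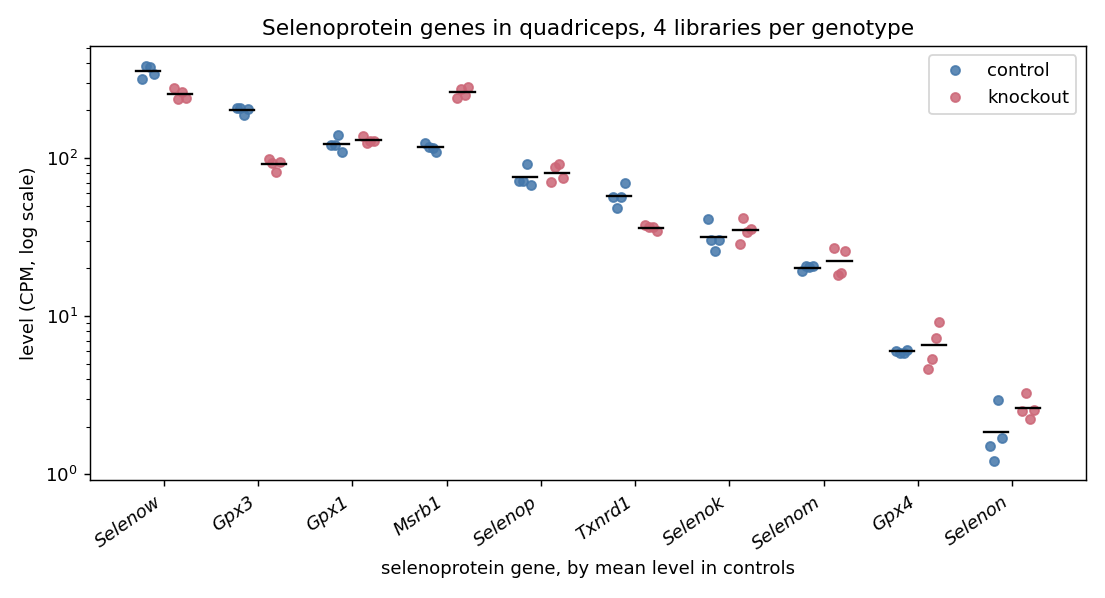
Level of each of the 10 selenoprotein genes in CPM on a log axis, ordered by the mean in controls; each point is 1 library, blue for control and red for knockout (4 each), and black bars are means. Msrb1 is higher in every knockout library than in any control, Gpx3, Selenow and Txnrd1 are lower, and the points of the other genes overlap.

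Msrb1 (ENSMUSG00000075705, chr17:24736642-24742778) encodes methionine-R-sulfoxide reductase B1, which reduces oxidized methionine in the cytosol and nucleus, including methionines of actin oxidized by MICAL enzymes. Its level was 125, 118, 115 and 109 CPM in controls 1 to 4 and 241, 273, 252 and 283 CPM in knockouts 1 to 4. The lowest knockout library thus stood well above the highest control. The rise was 2.24-fold (95% interval 1.99 to 2.54; log2 fold change 1.17, SE 0.09, edgeR adjusted p = 7.4e-10), and Msrb1 ranked at 13 of 10691 genes by p. Among the 10 genes its mean level stood behind Selenow, Gpx3 and Gpx1 in controls and ahead of all of them in knockouts. Its lead over Selenow in knockouts was small (means of 262.2 and 253.3 CPM), and Selenow was the higher gene in knockouts 1 and 3. Its control range overlapped that of Gpx1.

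The relatives of Msrb1 that use cysteine did not pass the threshold. Msrb3, a reductase of the endoplasmic reticulum, was at 276, 184, 207 and 196 CPM in controls and 147, 248, 236 and 217 CPM in knockouts. Its means were 215.7 ± 41.1 and 211.8 ± 45.1 CPM (n = 4 per group, SD), with a log2 fold change of -0.03 (95% interval -0.42 to 0.37). The near-equal means rest on the high control 1 and the low knockout 1. Without control 1 the value was 0.114 and without knockout 1 it was 0.107, neither of them called. The mitochondrial Msrb2 had a value of -0.16 (-0.49 to 0.18), and Msra, which reduces the other stereoisomer of methionine sulfoxide, one of 0.22 (-0.16 to 0.61), on the same scale. Msrb1 held 29.5% to 36.2% of the summed CPM of the 4 reductase genes in control libraries and 49.1% to 59.5% in knockout libraries. The share of 59.5% was that of knockout 1, where Msrb3 was lowest. Msrb3 was the leading gene of the family in every control library, and Msrb1 in every knockout library.

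MICAL enzymes oxidize the actin methionines that MsrB1 reduces. In a list of 7 MICAL and actin genes, 6 were tested, of which 2 were higher and 1 lower (median log2 fold change 0.19). The shares over all tested genes were 8.87% higher and 6.8% lower. Mical2 fell from 36.1 ± 1.73 to 23.6 ± 4.59 CPM (n = 4 per group, SD; fold change on the log2 scale -0.62, SE 0.13, edgeR adjusted p = 0.0014), while Mical1 and Mical3 had values of -0.14 and 0.21 and were not called. The embryonic and cardiac actin gene Actc1 rose (2.67, SE 0.29). Acta1, the main actin of adult muscle, had a log2 fold change of 0.26 (SE 0.09, edgeR adjusted p = 0.0495), a call that ended under 11 of 17 alternatives.

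Gpx3 (ENSMUSG00000018339, chr11:54902453-54910377) encodes the secreted glutathione peroxidase of plasma. It stood at 206, 207, 188 and 204 CPM in controls and 98.9, 92.8, 82.1 and 94.1 CPM in knockouts. Every knockout library was at about the same low level, and the groups were far apart. The knockout level was 45.7% of control (log2 fold change -1.13, SE 0.08, 95% interval -1.31 to -0.96, edgeR adjusted p = 1.3e-09).

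Gpx1, the cytosolic peroxidase, was at 121, 121, 141 and 109 CPM in controls and 137, 125, 128 and 129 CPM in knockouts. Its libraries overlapped, and the log2 fold change of 0.08 had a 95% interval of -0.10 to 0.26. Gpx1 and Gpx3 share 53.6% of aligned residues. Summed over the 5 peroxidase genes with reads (Gpx1, Gpx3, Gpx4, Gpx7 and Gpx8), the level was 341.9 ± 7.15 CPM in controls and 242.8 ± 10.4 in knockouts (SD, n = 4 each). Gpx3 held 54.3% to 61.6% of this sum in controls and 35.5% to 38.9% in knockouts, where Gpx1 was the leading gene. The sum, the shares and the leading gene rest on the counts as given, and that of Gpx4 is uncertain (next paragraph).

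Gpx4, the peroxidase that acts on lipid peroxides in membranes, had few reads: 28, 29, 30 and 29 in controls and 22, 28, 39 and 43 in knockouts. Its log2 fold change was 0.14 (95% interval -0.32 to 0.60). This count is uncertain, because 98.4% of the 50-base words in the last 300 bases of its transcript also occur in the pseudogene Gpx4-ps2, and reads that map to both may have been dropped or split. Of the 24 selenoprotein genes it was the one with such shared words. Gpx4 and Gpx4-ps2 together held 70, 55, 65 and 64 reads in controls and 50, 52, 54 and 72 in knockouts, so this sum overlapped as well. The endoplasmic reticulum peroxidases Gpx7 and Gpx8 had log2 fold changes of 0.16 (95% interval -0.23 to 0.54) and 0.47 (-0.0024 to 0.95) and were not called.

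Txnrd1 (ENSMUSG00000020250, chr10:82833951-82897712) encodes the cytosolic thioredoxin reductase. It fell from 56.4, 48.5, 56.4 and 69.8 CPM in controls to 37.5, 36.5, 36.4 and 34.4 CPM in knockouts. The knockout libraries lay close together, and the controls were more spread. The knockout level was 62.7% of control (log2 fold change -0.67, SE 0.11, 95% interval -0.90 to -0.45, edgeR adjusted p = 9.1e-05). The mitochondrial Txnrd2 (0.11, 95% interval -0.17 to 0.38) and Txnrd3 (-0.04, -0.46 to 0.37) were not called. Txnrd1 held 67.1% to 73.5% of the summed CPM of these 3 genes in controls and 54.0% to 61.3% in knockouts.

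**Figure D2:**
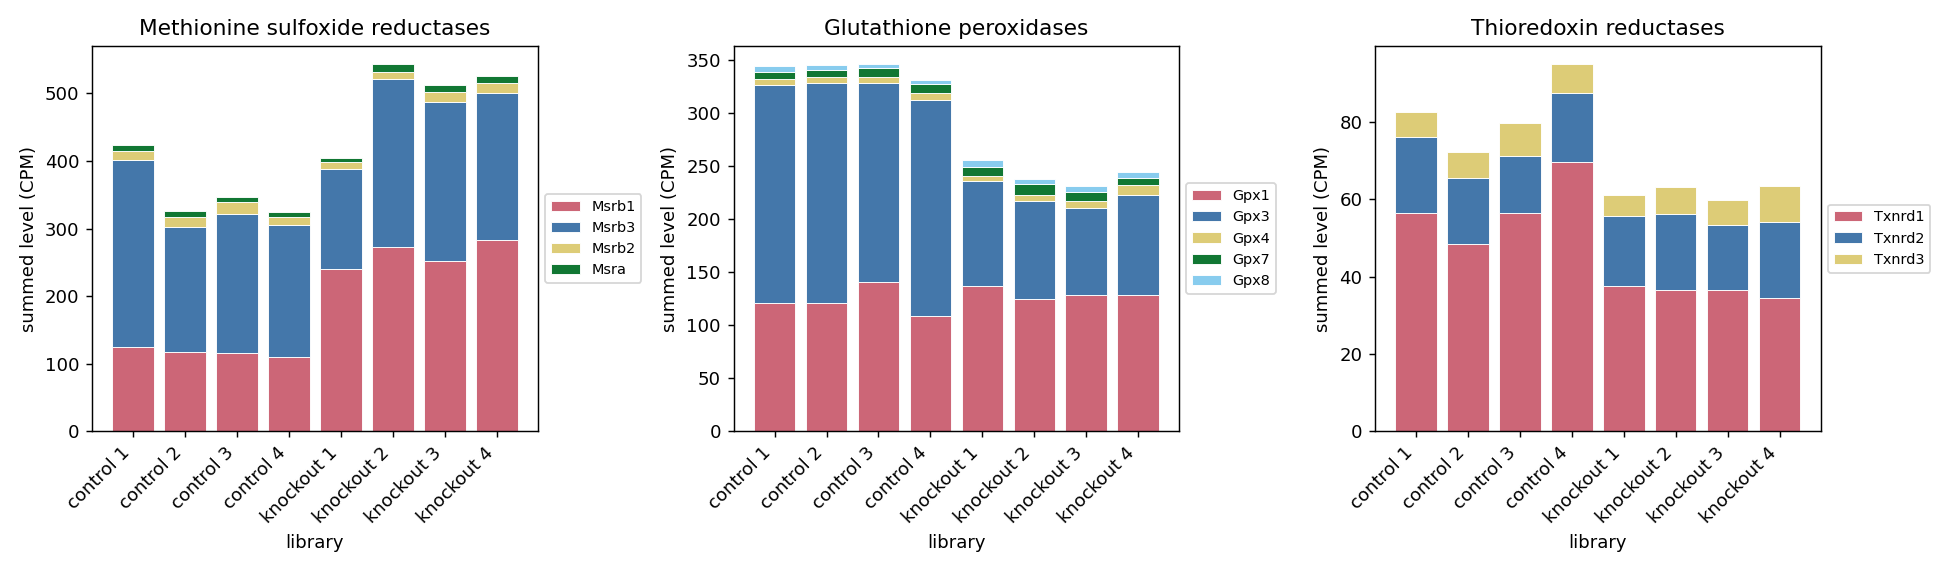
Summed CPM per library (bars start at 0) of the methionine sulfoxide reductases, glutathione peroxidases and thioredoxin reductases, with each gene as a coloured segment. Between control and knockout libraries the Msrb1 segment grows, and the Gpx3 and Txnrd1 segments shrink while Gpx1 and Txnrd2 keep similar heights.

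Selenow (ENSMUSG00000041571, chr7:15917208-15922402) encodes selenoprotein W, a small thioredoxin-like protein. Its level was 315, 384, 376 and 339 CPM in controls and 278, 235, 261 and 239 CPM in knockouts. Apart from Gpx4, whose count is uncertain, it had the highest mean of the 24 selenoprotein genes in controls. In every knockout library Selenow was below every control. The knockout level was 71.7% of control (log2 fold change -0.48, SE 0.09, 95% interval -0.66 to -0.30, edgeR adjusted p = 0.00038). Gpx1, Selenow and Selenoh are known for mRNAs that fall in selenium deficiency; of these Selenow fell, Gpx1 was not called, and Selenoh had a value of 0.42 (SE 0.16, edgeR adjusted p = 0.080).

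Selenop, the plasma carrier that delivers selenium to tissues, was at 71.5, 71.8, 91.6 and 67.5 CPM in controls and 70.4, 87.3, 91.0 and 75.3 CPM in knockouts. The groups overlapped (log2 fold change 0.10, 95% interval -0.12 to 0.32). Gpx3 and Selenop are both secreted proteins, and the interval of Gpx3 lay below 0 while that of Selenop held 0. The difference between the 2 genes was not tested.

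The remaining genes encode proteins of the endoplasmic reticulum. Selenok, a membrane protein that works with the palmitoyl transferase DHHC6, was at 25.7 to 41.4 CPM in controls and 28.7 to 41.6 in knockouts (log2 fold change 0.14, 95% interval -0.14 to 0.42). Selenom, a thioredoxin-like protein, was at 19.4 to 20.7 CPM in controls and at 27.0, 18.1, 18.8 and 25.8 CPM in knockouts 1 to 4 (0.14, -0.15 to 0.43). Knockouts 1 and 4 stood above the controls for Selenom and knockouts 2 and 3 below. Selenon, the selenoprotein tied to muscle disease and to calcium handling, had 7, 6, 15 and 8 reads in controls and 12, 17, 12 and 12 in knockouts (0.51, -0.19 to 1.20). It passed the low-count filter through the knockout libraries, since 1 control reached the minimum count of 10, so its position above 0 was favoured by the filter.

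In controls the order of the 10 genes by mean CPM was Selenow, Gpx3, Gpx1, Msrb1, Selenop, Txnrd1, Selenok, Selenom, Gpx4 and Selenon. The place of Gpx4 is uncertain, as is its count. The control ranges of neighbours overlapped for Gpx1 and Msrb1 and for Selenop and Txnrd1, and were apart for the other neighbours.

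The other 14 selenoprotein genes included none that passed the threshold, which 15.7% of all tested genes passed. Gpx2 and Selenov had 0 reads in all 8 libraries (under the floor of 3 reads in each), Dio1 had 1 read in all and Dio3 had 17, and these 4 were not tested. Of the 10 tested, Selenos, an endoplasmic reticulum membrane protein, had the highest level (98.0 ± 11.5 CPM in controls and 93.2 ± 10.9 in knockouts, SD, n = 4 each; log2 fold change -0.07, 95% interval -0.28 to 0.13). Selenot, Selenof, Selenoo and Selenoi, the ethanolamine phosphotransferase of the Kennedy pathway, had values of 0.23, 0.09, -0.18 and 0.15, and Selenoo shares exonic bases with Tubgcp6 on the opposite strand. Dio2, which activates thyroid hormone, had 0.26 (95% interval -0.23 to 0.74). Sephs2, the selenophosphate synthetase that is itself a selenoprotein, had -0.25 (-0.52 to 0.02).

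**Figure D3:**
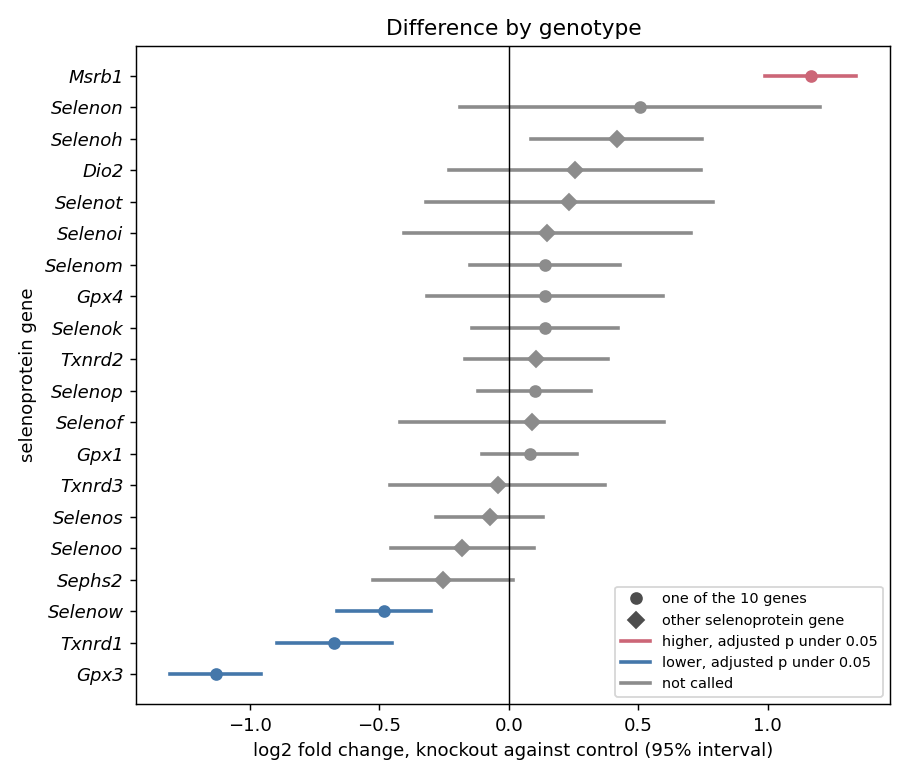
Log2 fold change of knockout against control with its 95% interval for the 20 tested selenoprotein genes, circles for the 10 genes and diamonds for the others; red and blue mark adjusted p under 0.05, grey the rest. Msrb1 at 1.17 and Gpx3 at -1.13 lie at the ends, with Txnrd1 and Selenow next to Gpx3.

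Summed over all 24 selenoprotein genes, the level was 1224, 1238, 1248 and 1197 CPM in controls and 1153, 1153, 1164 and 1180 CPM in knockouts. These sums averaged 1227 ± 22.4 and 1162 ± 12.9 CPM (SD, n = 4 each), and every knockout sum lay below every control sum. They differed far less than their make-up, and no test was made of them. The sums and the shares below include the uncertain count of Gpx4. Msrb1 held 9.52% ± 0.505 of the sum in controls and 22.6% ± 1.52 in knockouts (SD, n = 4 each). Gpx3 held 15.1% to 17.1% and 7.06% to 8.58%, and Selenow 25.7% to 31.0% and 20.3% to 24.1%. Without Msrb1 the other 23 genes summed to 1110.0 ± 20.5 CPM in controls and 900.2 ± 15.5 in knockouts (SD, n = 4 each).

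**Figure D4:**
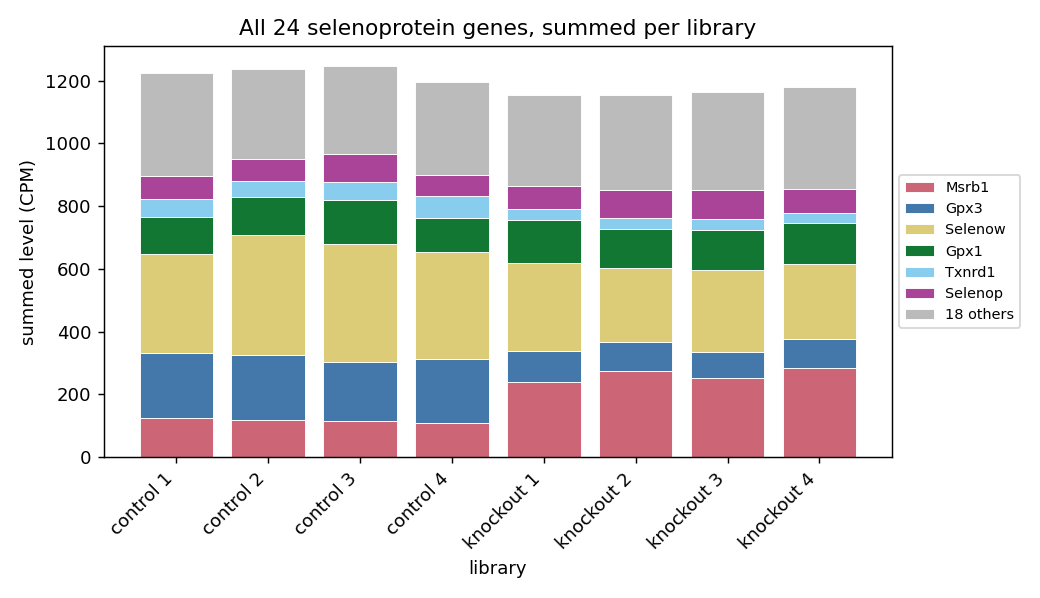
Summed CPM of all 24 selenoprotein genes in each library (bars start at 0), with the most abundant of the 10 genes as coloured segments and the remaining genes in grey. Bar heights run from 1153 to 1248 CPM, and the Msrb1 segment is larger and the Gpx3 segment smaller in each knockout library.

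Genes that make and insert selenocysteine or supply selenium were tested from a list of 14, of which 12 passed the filter, and 0 of them were called in either direction by edgeR. Their median log2 fold change was -0.02, and 15.7% of all tested genes were called. Secisbp2, which binds the stem-loop, had a value of -0.06 (SE 0.16), its relative Secisbp2l 0.04, the elongation factor gene Eefsec -0.67 (SE 0.36), and Sepsecs and Pstk, which make selenocysteine on its tRNA, 0.42 (SE 0.27) and 0.27 (SE 0.15). Eefsec had few reads, 22, 12, 10 and 10 in controls and 7, 12, 10 and 6 in knockouts. Knockouts 1 and 4 were under the minimum count of 10, so the filter may have favoured its position below 0. The values of Sephs1, Trnau1ap, Scly, Eif4a3, Ncl, Trit1 and Alkbh8 lay between -0.23 and 0.24. The selenoprotein P receptor genes Lrp8 and Lrp2 had 9 reads and 1 read in all libraries and were not tested.

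In a list of thioredoxin and glutathione partners of the reductases, 1 of 14 tested genes was higher and 1 lower (median 0.07), a share near the 15.7% of all tested genes. Thioredoxin itself, Txn1, the substrate of Txnrd1, rose from 38.5 ± 3.26 to 51.9 ± 7.71 CPM (n = 4 per group, SD; fold change on the log2 scale 0.43, SE 0.11, edgeR adjusted p = 0.0079). Glrx3 fell by 0.31 on the log2 scale (SE 0.10, edgeR adjusted p = 0.028), a call that ended without control 2, control 4, knockout 2, knockout 3 or knockout 4.

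Txnrd1 is also a known target of NRF2, the transcription factor of the antioxidant response. Of 17 tested genes in the NRF2 list 2 were higher and 3 lower (median -0.04), Txnrd1 among the latter. Beside this, 8.87% of all tested genes were higher and 6.8% lower. Gsta4 (0.82, SE 0.18) and Txn1 rose, and Gstm1 fell (-0.39, SE 0.09), as did Osgin1 (-0.59, SE 0.18, edgeR adjusted p = 0.029), a call that ended without control 3, control 4, knockout 1, knockout 3 or knockout 4. Nqo1 and Hmox1 were not called (-0.19, SE 0.13, and -0.25, SE 0.20). The antioxidant response element was searched as TGACNNNGC on both strands, with no other motif searched. It was present in 12.4% of all promoter windows (250 bases before to 50 after a gene start, RefSeq, GRCm38.p6). Counted by gene, 13.99% of all genes had the motif in at least 1 window. Among the 10 genes it was found in 1 of the 3 windows of Txnrd1 and in the window of Selenok, shown here with the motif in capitals (read on the minus strand in Txnrd1), and no window of the other members held these letters.
Txnrd1: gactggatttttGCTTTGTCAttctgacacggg
Selenok: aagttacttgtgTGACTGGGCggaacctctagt

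Among endoplasmic reticulum partners of selenoproteins F, K and S, 3 of 10 tested genes were higher and 0 lower (median 0.09). Over all tested genes 8.87% were higher and 6.8% lower. Uggt1, the glycoprotein folding sensor that binds selenoprotein F, rose from 102.4 ± 11.8 to 147.5 ± 12.8 CPM (n = 4 per group, SD; fold change on the log2 scale 0.53, SE 0.09, edgeR adjusted p = 0.00031). Ufd1 (0.46, SE 0.12) and Nploc4 (0.35, SE 0.10), cofactors of the segregase Vcp, rose too, although Nploc4 was no longer called without control 3 (adjusted p = 0.059). Of 5 tested calcium release and uptake genes linked to selenoprotein N, 1 was higher, Casq2 (0.56, SE 0.14), and 0 were lower, with Ryr1 among those not called.

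Levels in bulk muscle combine cell number and RNA per cell, and these cannot be told apart. The marker counts below stand beside 8.87% higher and 6.8% lower over all tested genes. Macrophage markers had 0 of 8 tested members higher and 3 lower, namely Cd163 (log2 fold change -0.75, SE 0.18), C1qb (-0.83, SE 0.21) and Csf1r (-0.59, SE 0.19). The Csf1r call ended in 7 of 17 alternatives, with limma voom and without control 2, 3 or 4 or knockout 1, 2 or 4 (edgeR adjusted p up to 0.166), while those of Cd163 and C1qb held in all 17. Their summed level was 93.5 to 155 CPM in controls and 66.6 to 110 CPM in knockouts. Fibroblast markers had 0 of 8 higher and 1 lower, Dcn (-0.27, SE 0.09), with sums of 602 to 727 and 536 to 627 CPM. The Dcn call ended in 5 of 17 alternatives, with the library number as a covariate and without control 3, control 4, knockout 3 or knockout 4 (edgeR adjusted p up to 0.149). None of the tested endothelial (8), adipocyte (6), mural (6), red cell (5), satellite cell (3) or Schwann cell (4) markers was called. Of 3 tested slow fibre markers 1 was higher, the ventricular and slow myosin light chain gene Myl3, at 7.75, 33.5, 26.0 and 27.7 CPM in controls and 398, 172, 148 and 158 CPM in knockouts (log2 fold change 3.20, SE 0.53). The list's sum, 24.8 to 69.7 CPM in controls and 172 to 458 CPM in knockouts, was mostly Myl3 in the knockouts. Tnnt1 (1.09, SE 0.89) and Atp2a2 (-0.14, SE 0.17) were not called, and the slow myosin gene Myh7, at 1.24 ± 1.55 CPM in controls and 1.19 ± 1.58 in knockouts (SD, n = 4 each), was too low to be tested, as were Tnni1, Tnnc1 and Myl2. Of 8 myofibre markers Mb (0.87, SE 0.12) and Acta1 were higher and Myh4 (-0.31, SE 0.09) lower. Myh2, at 344.0 ± 145.2 CPM in controls and 948.7 ± 363.5 in knockouts (SD, n = 4 each), was not called (1.46, SE 0.41, edgeR adjusted p = 0.064). Nor were Myh1 (0.67, SE 0.24), Ckm (0.22), Tnnt3 (0.04) and Ttn (-0.03). The part of these shifts in the values of Msrb1, Gpx3, Txnrd1 and Selenow was not tested.

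The genes with profiles most like that of Msrb1 over the 8 libraries were Qsox1, a sulfhydryl oxidase gene, Pfkfb1 and Nkiras1. Their centred log2 CPM differed from that of Msrb1 by a root mean square of 0.09, 0.09 and 0.11, out of 6467 genes compared. For Gpx3 they were Npc1, Itpr1 and Otud3, at 0.13, 0.14 and 0.14. The level of Qsox1 averaged 77.8 ± 5.71 CPM in controls against 178.5 ± 13.7 CPM in knockouts (SD, n = 4 each). That of Npc1, a lysosomal cholesterol transporter gene, averaged 168.9 ± 24.2 CPM against 76.7 ± 4.86 CPM. These genotype differences follow from the choice by profile and are not a separate result.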

How the data were processed

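Each library came as 1 deposited table of unnormalized read counts per Ensembl gene, per the file headers. Tools listed by the submitters' processing notes are featureCounts, Subread 1.6.2 and Bowtie2 2.3.4.1, with the builds GRCm38 and mm10. For annotation release, strand setting and reads with several hits the choice was not given in the sources used here. Of 54532 genes, 54495 matched GENCODE M21 names. Groups came from the genotype labels, with replicates numbered in accession order.

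Counts were filtered with filterByExpr (minimum count 10, total 15), scaled by TMM and tested in R 4.3.3 with edgeR 4.0.16 (robust quasi-likelihood F test, Benjamini-Hochberg over 10691 genes, threshold 0.05). The SE was taken as the absolute log2 value over the root of the F statistic. The procedure was tested on simulated counts. No pair of libraries agreed within sampling noise (chi-square per degree of freedom at least 2.33).

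The 10 genes, the lists and the naming rule were chosen with earlier results of these data known. The rule named all selenoprotein genes, every tested member of the cysteine-relative and selenocysteine lists, the changed genes of lowest p per other list, changed markers, and 3 genes each of closest profile to Msrb1 and Gpx3 with a mean of at least 10 CPM. Nqo1, Hmox1, Mical1, Mical3, Ryr1 and the uncalled slow fibre and myofibre markers were named outside it, after their values were seen. Alternatives used DESeq2 1.42.0, limma 3.58.1 and the settings in the closing section. A gene overlap that bears on how certain 1 count is was checked but is not reported here.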

Additional observations from a re-analysis of the deposited data

Results flagged for a closer look

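Of 40 groups of 4 libraries checked for the 20 tested selenoprotein genes, 2 had 1 library far from the others, and chance flags about 1 in 20 groups. Gpx3 stood at 188 CPM in control 3 against 204 to 207 CPM in the other controls, still far above the knockouts. Selenot stood at 48.2 CPM in control 1 against 30.2 to 31.0 CPM in the other controls. Knockout 1 was not flagged for Selenot but was low, at 24.3 CPM against 48.3, 41.4 and 49.9 CPM in knockouts 2 to 4. Control 1 was also the highest control and knockout 1 the lowest knockout for Selenok, Msrb3 and Sepsecs, though not for Gpx1. How many genes share this pattern was not tested.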

How the results depend on the processing

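The 17 alternatives were other scalings (library totals alone, upper quartile, DESeq2 size factors), no low-count filter or a stricter one (at least 5 CPM in 4 libraries, which removed Selenon, Selenoi and Eefsec), DESeq2, limma voom, edgeR without robust estimation, the library number as a covariate and the omission of each of the 8 libraries. The count of 1 higher and 3 lower among the 10 genes held in all 17, and the number of changed genes lay between 1307 and 1835. On the log2 scale Msrb1 ranged from 1.12 to 1.20, Gpx3 from -1.18 to -1.08, Txnrd1 from -0.76 to -0.58 and Selenow from -0.53 to -0.45. No paired analysis was possible because the labels give no number that control and knockout libraries share.

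Signs changed for uncalled genes near 0 when single libraries were left out: Gpx4 (-0.0605 without knockout 4, up to 0.27), Txnrd3 (-0.21 to 0.0533), Selenof (-0.0806 to 0.39), Selenoi (-0.0403 to 0.48), Selenos (-0.13 to 0.0049), Secisbp2 (-0.19 to 0.0507), Secisbp2l (-0.0539 to 0.16), Trnau1ap (-0.23 to 0.0029), Scly (-0.37 to 0.0044), Ncl (-0.029 to 0.0806, and -0.023 with library totals alone) and Msrb3 (-0.11 to 0.11). Selenoh (adjusted p = 0.047 without control 3), Sephs2 (0.048 without control 4) and Sepsecs (0.040 without knockout 1) were called in 1 alternative each. Calls ended in some alternatives for Acta1, Glrx3, Osgin1, Nploc4, Dcn (5 of 17) and Csf1r (7 of 17); the cause was not tested. Low counts limit Selenon, Gpx4, Selenoi and Eefsec.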
